A study of Saccharomyces cerevisiae with 36 samples.

Results

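The comparison described here is that of *Saccharomyces cerevisiae* strain 11 grown alone in grape must, sampled at 30 h (3 libraries) and at 20 h (3 libraries), which are 6 of the 36 libraries in the series. Strain 11 is the non-dominant one of a pair of wine strains; the other, strain 12, is dominant when both are grown together. The libraries were chosen by their labels, which give the strain, the kind of culture (single or mixed) and the sampling time. By the study's protocols, cells at 30 h were at the start of stationary phase and cells at 20 h were in the middle of exponential growth, whereas those at 12 h, used below for context, had just begun to grow exponentially. In every group, the single cultures included, the strains carried a green fluorescent protein or eSapphire under the GPD promoter together with a KANMX cassette, and cells were collected by sorting on that fluorescence before the RNA was extracted and amplified. The labels do not name the marker carried in a given library, so its part in any value cannot be told apart from the rest of the spread. The methods describe triplicate fermentations with aliquots taken at 3 phases, so libraries of different times may come from the same fermentation. The labels number the replicates without saying what a number shares. The p-values below rest on the spread between libraries within groups, estimated over all 36 libraries of the series.

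Yeast that leaves exponential growth in must has commonly used up its preferred nitrogen sources and meets rising ethanol. Chaperones are the proteins that fold, refold, gather or release other proteins. Small heat shock proteins hold misfolded chains, and Hsp104 and its mitochondrial relative Hsp78 pull chains out of aggregates. Hsp70 proteins bind exposed stretches with the help of J-proteins and nucleotide exchange factors, and Hsp90 proteins complete the folding of kinases and receptors. Many of their genes are driven by the heat shock factor Hsf1, and part of them also by the general stress factors Msn2 and Msn4, which ethanol activates.

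Reads counted on genes numbered 82785, 140459 and 66068 in the 30 h libraries and 85804, 59809 and 62864 in the 20 h libraries, so that a median gene held 2 to 5 reads. Of 6717 genes in the tables, 4424 to 5432 had at least 1 read in a library. Levels are given as CPM, that is, a gene's reads per 1000000 reads of its library after scaling by the TMM method, and they are shares of the mRNA: a smaller share and less mRNA per cell cannot be told apart. Ribosomal protein genes took 0.829%, 1.03% and 1.35% of the reads at 30 h and 0.741%, 1.34% and 1.09% at 20 h. Reads on the mitochondrial genome made up 2.59%, 2.69% and 0.755% at 30 h and 1.55%, 2.43% and 0.449% at 20 h, the lowest being replicate 3 at both times. The strain labels were checked on a gene in which the strains differ: *SSU1*, which encodes a sulfite pump, had 1, 2 and 1 reads at 30 h and 2, 0 and 0 reads at 20 h, whereas in strain 12 its levels ran from 592 to 1422 CPM over the same times. Of the other genes used for that check, *YHB1* had 111, 38.4 and 16.3 CPM at 30 h and 77.5, 71.8 and 17 CPM at 20 h (564 to 1060 CPM in strain 12). *OPT2* had 234, 775 and 1240 CPM at 30 h and 387, 89.7 and 695 CPM at 20 h (2368 to 8368 CPM in strain 12).

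Between the times, 26 of 3670 tested genes changed at an adjusted p of at most 0.05 (0.708%), of which 19 were lower (0.518%) and 7 were higher (0.191%) at 30 h. The test was edgeR's quasi-likelihood test with Benjamini-Hochberg adjustment over all tested genes. Of the 19 genes that fell, 10 encode heat shock proteins or chaperones. Among the rest were *ZPR1*, *ARG1* of arginine synthesis, *DAL7* of allantoin use, and the kinase gene *HOG1*. The genes that rose were *PDC6*, *NCA3*, *SPS100*, *GAT2*, *OAF1*, *MOT2* and *CEX1*. The median log2 fold change of all tested genes was 0.04, and 47.5% of them lay below 0. Leaving out replicate 1 at 30 h left 5 calls, replicate 2 at 30 h 11 calls and replicate 3 at 20 h 12 calls; the 5 that stayed without replicate 1 were *HSP30*, *HSP42*, *HSP78*, *SSA2* and *ZPR1*, all lower at 30 h. *HSP30*, *HSP42*, *HSP78* and *ZPR1* stayed called whichever of the 6 libraries was left out, and each of the other 22 calls was lost without at least 1 of them.

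The gene list of heat shock proteins and chaperones had 49 members, of which 45 were tested. Of these, 10 fell and 0 rose by edgeR's test (21 were lower and 2 higher at an unadjusted p under 0.05, against 6.54% and 6.08% of all tested genes, and DESeq2 called 10 lower and 0 higher). The 30 h libraries lay wholly below the 20 h libraries for 22 of the 45 (0 lay wholly above), against 7.6% of all tested genes lying below and 6.7% above; in either direction the libraries of 14.3% of all tested genes did not overlap. The median log2 fold change over the tested members was −0.70 and 37 of 45 were below 0. Together the list took 1.65%, 1.9% and 1.93% of the reads at 30 h, against 3.98%, 3.83% and 3.43% at 20 h. The count of members called fell to 4 without replicate 1 at 30 h, to 3 without replicate 2 at 30 h and to 6 without replicate 1 at 20 h.

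Of the genes that gather or release misfolded proteins, *HSP42* encodes the small heat shock protein that collects misfolded proteins in the cytosol. It had 627, 614 and 604 CPM at 30 h, against 2466, 2351 and 3273 CPM at 20 h (chromosome IV, 806619 to 807746, plus strand, in the sacCer2 coordinates of the deposited tables). Its libraries did not overlap, and the log2 fold change was −2.13 ± 0.34 (SE, 3 libraries each, edgeR adjusted p = 6.5e-05). *HSP78*, which encodes the mitochondrial disaggregase, had 578, 645 and 571 CPM at 30 h and 2918, 2189 and 2307 CPM at 20 h, a log2 fold change of −2.04 ± 0.33 (edgeR adjusted p = 6.5e-05). Both genes held nearly 1 level in all the libraries at 30 h.

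*HSP104*, which encodes the cytosolic disaggregase, had the log2 fold change nearest to 0 of the 10 called members. It had 2878, 3292 and 2840 CPM at 30 h and 9078, 5042 and 5851 CPM at 20 h, with a log2 fold change of −1.15 ± 0.27 (edgeR adjusted p = 0.022). *BTN2*, whose product gathers misfolded proteins, had few reads: 1, 5 and 3 at 30 h, against 35, 13 and 16 at 20 h, which are 12.3, 38.4 and 49 CPM at 30 h and 452, 233 and 271 CPM at 20 h. Its log2 fold change was −3.27 ± 0.67 (edgeR adjusted p = 0.0074), the largest fall of any called gene. Other genes placed in the same role group, which takes in small heat shock proteins as well as disaggregases, did not pass. *HSP26*, a second small heat shock protein gene, had 221, 292 and 490 CPM at 30 h and 349, 377 and 237 CPM at 20 h. *HSP12* had 529, 1381 and 2089 CPM at 30 h and 2027, 3194 and 1611 CPM at 20 h. The libraries overlapped for both.

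**Figure D1:**
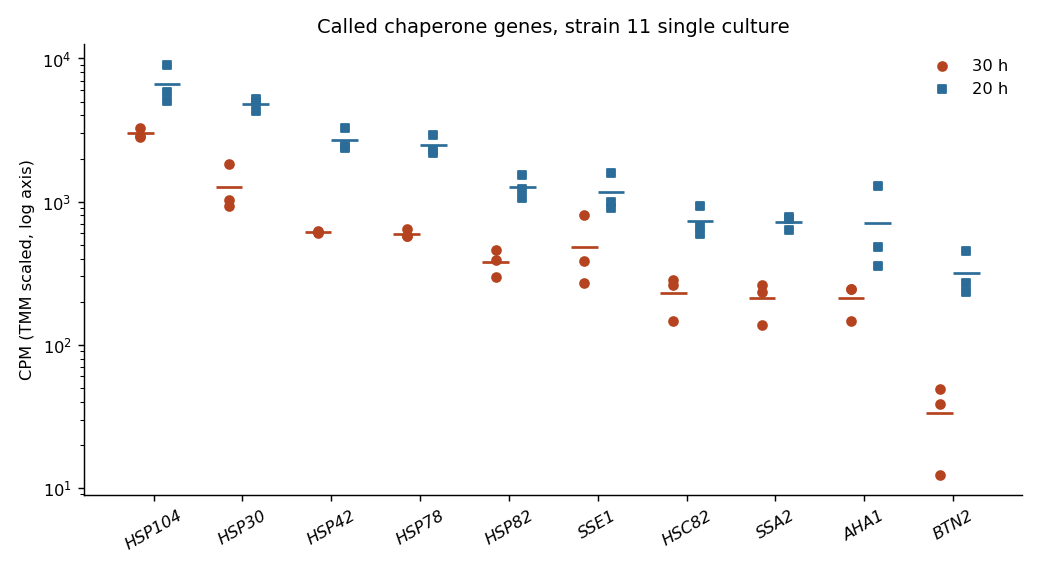
Level in CPM (TMM scaled, log axis) of the 10 called chaperone genes in each of the 3 libraries at 30 h (circles) and the 3 at 20 h (squares), with short lines at the group means. For *HSP42* the libraries at 30 h lie from 604 to 627 CPM and those at 20 h from 2351 to 3273 CPM, and for each of the genes the libraries of the times do not overlap.

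Of the Hsp70 genes, *SSA2*, which encodes a cytosolic Hsp70, fell to 234, 138 and 261 CPM at 30 h, against 633, 754 and 780 CPM at 20 h (log2 fold change −1.82 ± 0.38, edgeR adjusted p = 0.0074). *SSA1*, its close relative, had 972, 1213 and 1110 CPM at 30 h and 2376, 2674 and 2137 CPM at 20 h and did not pass (log2 fold change −1.12 ± 0.33, adjusted p = 0.092). *SSA4*, the strongly heat-inducible copy, had 160, 330 and 212 CPM at 30 h and 723, 718 and 458 CPM at 20 h (adjusted p = 0.11). *KAR2*, the Hsp70 of the endoplasmic reticulum, had 209, 361 and 294 CPM at 30 h and 723, 628 and 645 CPM at 20 h (adjusted p = 0.16). For these 4 genes the 30 h libraries all lay below the 20 h libraries. *SSA1* and *SSA2* are near-identical in sequence, so that reads may be split between them in a way the tables do not show, and *SSA1* overlaps the open reading frame YAL004W, with the use of strand in counting not stated.

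Other Hsp70 genes did not pass the test. *SSC1*, the mitochondrial Hsp70, had 1390, 1558 and 1306 CPM at 30 h and 1679, 1651 and 1611 CPM at 20 h, a small difference in libraries that did not overlap (log2 fold change −0.21 ± 0.27, adjusted p = 0.79). *SSB1* and *SSB2*, which bind new chains at the ribosome, had log2 fold changes of −0.17 and 0.16. *SSA3*, the copy linked with stationary phase, had 332, 299 and 522 CPM at 30 h and 116, 377 and 33.9 CPM at 20 h (log2 fold change 1.14 ± 0.53, adjusted p = 0.37).

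The Hsp70 partners, J-proteins and nucleotide exchange factors, had 11 tested members, and all 11 had a log2 fold change below 0 (median −0.98). *SSE1*, an exchange factor of the Hsp110 kind, was the 1 that passed: it had 271, 384 and 800 CPM at 30 h and 904, 1579 and 1001 CPM at 20 h (log2 fold change −1.29 ± 0.33, edgeR adjusted p = 0.036; 0.092 in a fit of the 6 libraries alone). *SIS1*, a J-protein, had 750, 967 and 539 CPM at 30 h and 2079, 1400 and 2086 CPM at 20 h (adjusted p = 0.092). *FES1*, another exchange factor, had 283, 146 and 245 CPM at 30 h and 581, 718 and 441 CPM at 20 h (adjusted p = 0.11). *YDJ1*, the abundant cytosolic J-protein, had a log2 fold change of −0.37 ± 0.39.

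Of the Hsp90 system, 3 of 9 tested genes fell, against 0.518% of all tested genes, and the median log2 fold change was −1.32. That median was the value of *HCH1*, which had 3, 7 and 2 reads at 30 h and 9, 4 and 8 at 20 h. In this group 7 of 9 genes were below 0, against 47.5% of all tested genes. *CDC37* and *SBA1* had log2 fold changes of 0.60 and 0.16 and did not pass. *HSP82*, the inducible Hsp90 gene, had 295, 391 and 457 CPM at 30 h and 1524, 1220 and 1068 CPM at 20 h (log2 fold change −1.75 ± 0.37, edgeR adjusted p = 0.0074). *HSC82*, the constitutive copy, had 148, 284 and 261 CPM at 30 h and 930, 592 and 678 CPM at 20 h (log2 fold change −1.66 ± 0.41, adjusted p = 0.027). The copies share most of their sequence, so that reads may be split between them. *AHA1*, which activates the ATPase of Hsp90, had 246, 246 and 147 CPM at 30 h and 1291, 484 and 356 CPM at 20 h (log2 fold change −1.73 ± 0.40, adjusted p = 0.014). Without replicate 1 at 20 h its log2 fold change was −0.96 (adjusted p = 0.32). *STI1*, which links Hsp70 to Hsp90, had 652, 675 and 490 CPM at 30 h and 969, 1202 and 712 CPM at 20 h and did not pass (log2 fold change −0.65 ± 0.30, adjusted p = 0.37).

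*HSP30*, a plasma membrane protein gene whose product lowers the activity of the proton pump Pma1, had 935, 1834 and 1028 CPM at 30 h and 4971, 5186 and 4291 CPM at 20 h (log2 fold change −1.91 ± 0.32, edgeR adjusted p = 0.00018). *HSP60*, the mitochondrial chaperonin gene, had 406, 315 and 277 CPM at 30 h and 917, 520 and 848 CPM at 20 h (adjusted p = 0.11). *HSF1*, the gene of the heat shock factor itself, had 590, 345 and 261 CPM at 30 h and 142, 251 and 288 CPM at 20 h, with overlapping libraries (log2 fold change 0.84 ± 0.40, adjusted p = 0.37). It overlaps the open reading frames YGL074C and YGL072C, and the use of strand in counting is not stated.

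**Figure D2:**
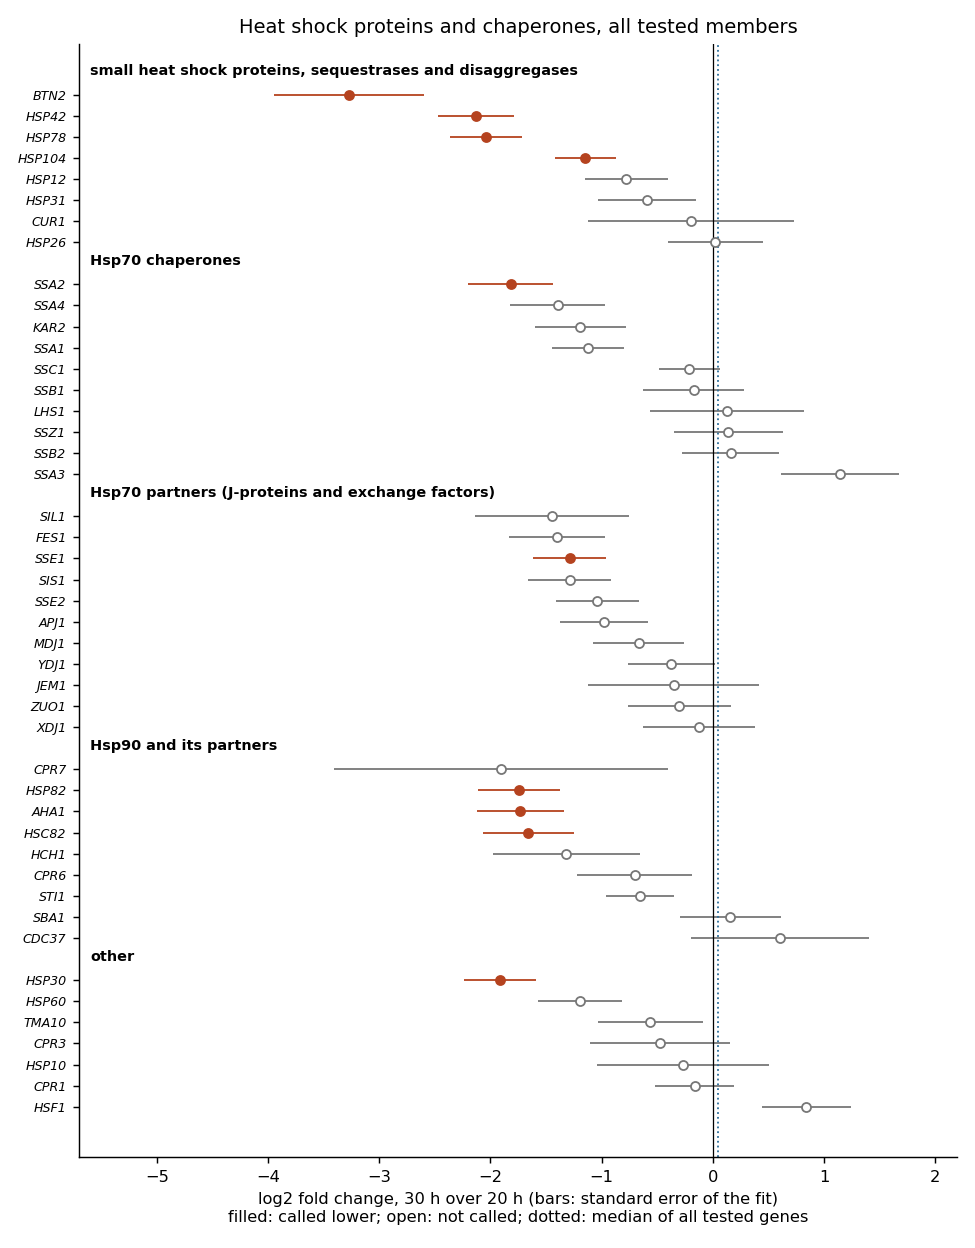
Log2 fold change, 30 h over 20 h, of each of the 45 tested heat shock protein and chaperone genes, with the standard error of the fit as bars, grouped by role. Filled points are the 10 called genes, all of them lower, and the dotted line is the median of all tested genes at 0.04.

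*ZPR1*, which encodes a zinc finger chaperone needed to fold translation elongation factor eEF1A, had the smallest p of all genes. It had 258, 192 and 277 CPM at 30 h and 1046, 1220 and 1323 CPM at 20 h (chromosome VII, 915246 to 916706, plus strand, sacCer2), a log2 fold change of −2.32 ± 0.34 (edgeR adjusted p = 2.8e-05). *OPI10*, whose human counterpart carries Hsp70 into the nucleus, had 61.5, 92.1 and 65.3 CPM at 30 h and 284, 305 and 322 CPM at 20 h (log2 fold change −2.0 ± 0.49, adjusted p = 0.027). *GFD2* had 73.8, 84.4 and 97.9 CPM at 30 h and 517, 215 and 458 CPM at 20 h (log2 fold change −2.23 ± 0.56, adjusted p = 0.031). For these 3 genes the libraries did not overlap. The call of *OPI10* was lost under 7 of 16 alternative settings, among them each of the 6 libraries left out. That of *GFD2* was lost under 8 of 16, and that of *ZPR1* under none.

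Of the 76 members of the amino acid synthesis list 68 were tested, 2 fell and 0 rose by edgeR (21 lower and 3 higher at an unadjusted p under 0.05; DESeq2 called 4 lower and 0 higher). Over all tested genes, 0.518% were called lower by edgeR, and 6.54% were lower and 6.08% higher at an unadjusted p under 0.05. The median log2 fold change of the list was −0.58, with 53 of 68 members below 0. For 15 members the 30 h libraries all lay below the 20 h libraries, against 7.6% of all tested genes. *ARG1*, argininosuccinate synthase, had 123, 261 and 457 CPM at 30 h and 426, 843 and 1357 CPM at 20 h, so that the highest library at 30 h lay above the lowest at 20 h (log2 fold change −1.67 ± 0.41, edgeR adjusted p = 0.027). The reads of the whole list made up 1.53%, 1.87% and 2.07% at 30 h and 2.02%, 2.77% and 3.39% at 20 h, and replicate 3 was highest at both times. *HIS4* and *ARO2*, of histidine and aromatic amino acid synthesis, did not pass (adjusted p = 0.086 for each).

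Of the genes under nitrogen catabolite repression, which are used when good nitrogen sources run out, 35 of 40 were tested, 1 fell and 0 rose by edgeR (7 lower and 3 higher at an unadjusted p under 0.05; DESeq2 1 lower and 0 higher). Of all tested genes, 0.518% were called lower, and 6.54% were lower and 6.08% higher at an unadjusted p under 0.05. The list as a whole was split, with 18 of 35 members below 0, against 47.5% of all tested genes, and 17 above. Its median log2 fold change was −0.12. *DAL7*, the malate synthase of allantoin breakdown, had 73.8, 115 and 81.6 CPM at 30 h and 349, 359 and 424 CPM at 20 h (log2 fold change −2.0 ± 0.46, adjusted p = 0.014). It overlaps the open reading frame YIR030W-A, and the use of strand in counting is not stated. *DAL4* (allantoin permease) had 49.2, 69.1 and 147 CPM at 30 h and 271, 305 and 611 CPM at 20 h. *DUR3* (urea permease) had 49.2, 261 and 81.6 CPM at 30 h and 555, 574 and 271 CPM at 20 h. Neither passed (adjusted p = 0.088 and 0.092). The amino acid permeases had 0 of 19 tested members called by edgeR, with 2 lower and 1 higher at an unadjusted p under 0.05 and 0 by DESeq2.

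3 further genes that fell belong to other lists or to none. *HOG1*, the MAP kinase of the osmotic stress response, had 135, 161 and 163 CPM at 30 h and 439, 215 and 729 CPM at 20 h (log2 fold change −1.59 ± 0.41, edgeR adjusted p = 0.039), a call that held under 7 of 16 alternative settings and not in a fit of the 6 libraries alone. *ADR1*, the activator of glucose-repressed genes, had 73.8, 99.8 and 212 CPM at 30 h and 375, 574 and 390 CPM at 20 h (log2 fold change −1.85 ± 0.44, adjusted p = 0.019). *BNI4*, which encodes a bud neck protein that recruits chitin synthase, had 2, 3 and 4 reads at 30 h and 14, 7 and 22 reads at 20 h (adjusted p = 0.014); it was singled out after its values were seen, since its mean count is low.

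Among the genes that rose, *PDC6*, the minor pyruvate decarboxylase gene, had 2472, 2195 and 1893 CPM at 30 h and 981, 897 and 424 CPM at 20 h (log2 fold change 1.5 ± 0.32, edgeR adjusted p = 0.0074). Its relatives *PDC1* and *PDC5* share sequence with it, so that reads may be split among them. *NCA3*, a gene of the SUN family of cell wall proteins, had 2349, 1496 and 1893 CPM at 30 h and 749, 951 and 373 CPM at 20 h (log2 fold change 1.47 ± 0.35, adjusted p = 0.019). *SPS100*, known for maturing the spore wall, had 640, 721 and 979 CPM at 30 h and 116, 449 and 67.8 CPM at 20 h (log2 fold change 1.92 ± 0.48, adjusted p = 0.031). Without replicate 2 at 20 h its log2 fold change was 3.04 (adjusted p = 0.0015), and the call was lost under 7 of 16 alternative settings. All libraries of these genes at 30 h lay above those at 20 h.

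The other genes that rose encode regulators or RNA factors, and *OAF1*, *MOT2* and *CEX1* rest on few reads. *GAT2*, of the GATA family of transcription factors, had 1242, 744 and 734 CPM at 30 h and 194, 323 and 119 CPM at 20 h (log2 fold change 2.11 ± 0.47, edgeR adjusted p = 0.013). *OAF1*, an activator of fatty acid breakdown genes, had 18, 24 and 17 reads at 30 h and 3, 2 and 3 reads at 20 h (log2 fold change 2.40 ± 0.54, adjusted p = 0.014). *MOT2*, the ubiquitin ligase of the Ccr4-Not complex, had 27, 24 and 8 reads at 30 h and 2, 2 and 3 reads at 20 h (log2 fold change 2.54 ± 0.58, adjusted p = 0.014). *CEX1*, a factor of tRNA export named after its values were seen, had 16, 11 and 7 reads at 30 h and 3, 0 and 0 at 20 h, a ratio of summed shares of 8.17 with an exact 95% counting interval of 2.57 to 41.6 (adjusted p = 0.036). It was the 1 gene of the 26 that DESeq2 did not call (adjusted p = 0.076). The interval covers counting error only.

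In the list of cell wall proteins and glucan enzymes, *NCA3* was the 1 of 59 tested members that rose and 0 fell by edgeR (6 higher and 0 lower at an unadjusted p under 0.05; DESeq2 1 higher), and the median log2 fold change was 0.30. Over all tested genes, 0.191% were called higher by edgeR, and 6.08% were higher and 6.54% lower at an unadjusted p under 0.05. A separate list, the TIP, TIR, DAN and CWP mannoproteins, had 0 of 10 tested members called, with 5 above 0 and 5 below (median −0.04). From that list, *SED1* had 25920, 13480 and 15900 CPM at 30 h and 5553, 10480 and 9091 CPM at 20 h. Its libraries did not overlap, yet it did not pass (log2 fold change 1.14 ± 0.35, edgeR adjusted p = 0.11). *CCW12*, of the same list, had 3998, 3285 and 6283 CPM at 30 h and 3228, 4019 and 7395 CPM at 20 h (log2 fold change −0.11). Stationary phase genes had 15 of 26 members tested, with 0 called by edgeR and 1 higher by DESeq2. At an unadjusted p under 0.05, 4 were higher and 0 lower, against the same shares over all tested genes. The list was split in direction, with 8 log2 fold changes above 0 and 7 below. Its median was 0.24, and −0.36 in strain 12 single culture. *GIS1*, a regulator of that phase, had 689, 514 and 408 CPM at 30 h and 168, 305 and 102 CPM at 20 h (log2 fold change 1.51 ± 0.43, adjusted p = 0.086). *FMP45* had 2718, 2678 and 2791 CPM at 30 h and 1950, 1705 and 865 CPM at 20 h (adjusted p = 0.34). *GND2* had 861, 1834 and 1567 CPM at 30 h and 1679, 1579 and 1408 CPM at 20 h (log2 fold change −0.13, edgeR adjusted p = 0.92).

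Several lists had no called member. Their counts at an unadjusted p under 0.05 stand against 6.54% lower and 6.08% higher over all tested genes. Ribosomal protein genes had 0 of 99 tested members called by edgeR, with 3 higher and 2 lower at an unadjusted p under 0.05, 0 by DESeq2, and a median log2 fold change of 0.03. Trehalose and glycogen genes had 0 of 22 called (1 higher and 3 lower unadjusted, 0 by DESeq2, median −0.27), and *TSL1*, a subunit of trehalose synthase, had 5363, 5617 and 4341 CPM at 30 h and 7606, 5293 and 6021 CPM at 20 h. General stress and redox defence genes had 0 of 54 called (3 higher and 7 lower unadjusted, 0 by DESeq2, median −0.17), and *CTT1*, cytosolic catalase, had 3912, 6554 and 5891 CPM at 30 h and 7786, 7088 and 6360 CPM at 20 h. All 16 tested genes of the mitochondrial genome had a log2 fold change above 0 (median 0.45), with 0 called by edgeR, 0 at an unadjusted p under 0.05 and 0 by DESeq2; the share of mitochondrial reads differed more between replicates than between times. The tricarboxylic acid cycle had 0 of 24 called, with 6 lower and 0 higher at an unadjusted p under 0.05 and 0 by DESeq2.

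**Figure D3:**
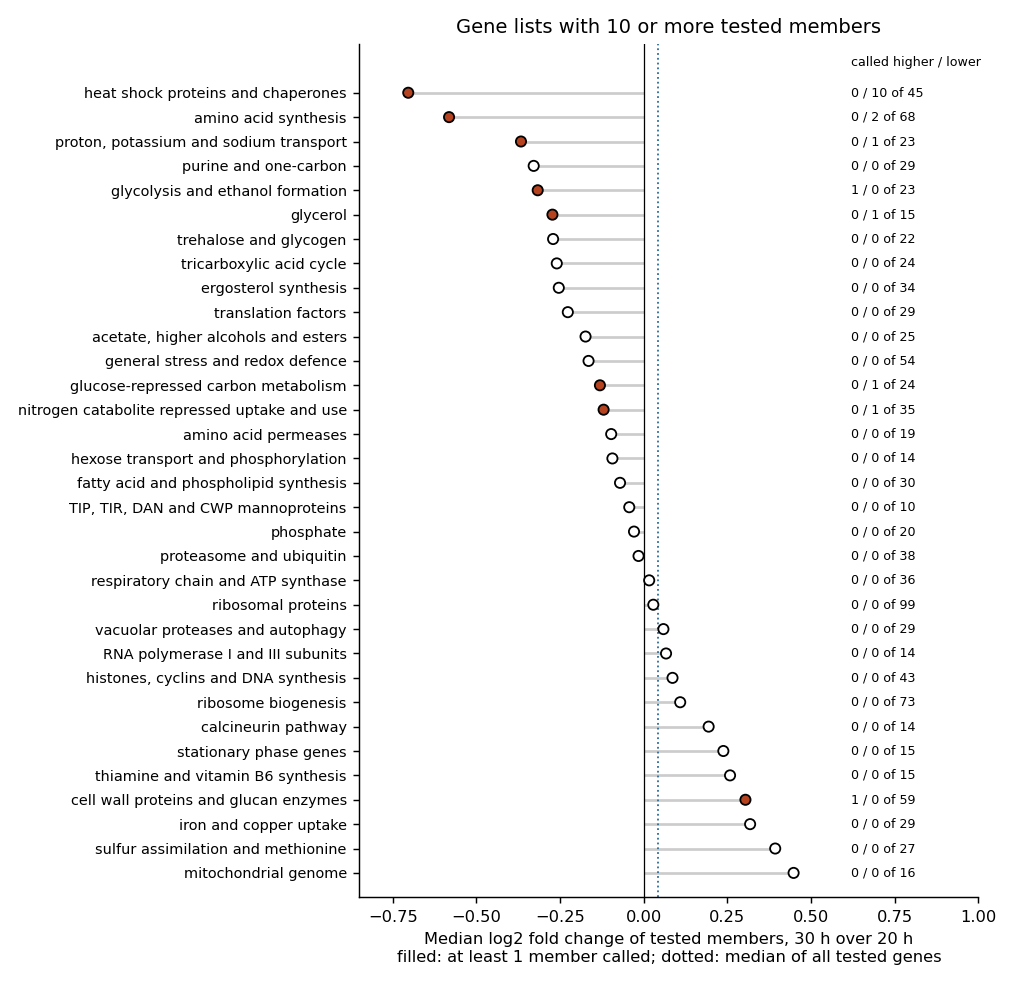
Median log2 fold change, 30 h over 20 h, of the tested members of each gene list with 10 or more of them. Filled points mark lists with at least 1 called member, the numbers at the right give the members called higher and lower of those tested, and the dotted line is the median of all tested genes. The chaperone list has the lowest median, −0.70, with 10 of 45 called lower.

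To set the 30 h against 20 h change beside what came before it, the levels at 12 h were taken into view. The comparison of 20 h with 12 h shares the 20 h libraries, and its 12 h libraries are deeper (260491 to 530376 reads), so values are given side by side without relating the changes. Of the 45 tested chaperone members, 16 were called higher at 20 h than at 12 h and 6 lower. Of all tested genes, 15.1% were called higher and 13.7% lower. *SSC1* and *SSB1* were among those lower at 20 h (log2 fold changes −1.63 and −1.66). *HSP30* had 134, 74.5 and 122 CPM at 12 h, 4971, 5186 and 4291 CPM at 20 h, and 935, 1834 and 1028 CPM at 30 h, so that the last time lay between the others. *HSP104* had 948, 1632 and 997 CPM at 12 h, 9078, 5042 and 5851 CPM at 20 h, and 2878, 3292 and 2840 CPM at 30 h. *HSP42* had 343, 851 and 295 CPM at 12 h, which overlapped its levels at 30 h (30 h over 12 h, log2 fold change 0.31, edgeR adjusted p = 0.52). *ZPR1* had 104, 181 and 67.3 CPM at 12 h and was higher at 30 h than at 12 h (log2 fold change 1.01, adjusted p = 0.024).

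*SSE1*, *ARG1* and *DAL7* were called lower both at 20 h against 12 h and at 30 h against 20 h. *SSE1* had 2124, 2622 and 1927 CPM at 12 h, 904, 1579 and 1001 CPM at 20 h and 271, 384 and 800 CPM at 30 h. *ARG1* had 1524, 1980 and 2285 CPM at 12 h, 426, 843 and 1357 CPM at 20 h and 123, 261 and 457 CPM at 30 h. *DAL7* had 369, 1274 and 656.5 CPM at 12 h, which overlapped 349, 359 and 424 CPM at 20 h (edgeR adjusted p = 0.030). At 30 h it had 73.8, 115 and 81.6 CPM. *SSA2* had 620, 1167 and 1060 CPM at 12 h, which overlapped 20 h. Of the 7 genes higher at 30 h than at 20 h, *PDC6*, *NCA3* and *SPS100* were also called higher at 20 h than at 12 h. At 12 h *PDC6* had 20.0, 17.7 and 12.6 CPM, *NCA3* had 198, 60.3 and 114 CPM and *SPS100* had 3.99, 21.3 and 0 CPM. *MOT2*, *GAT2* and *CEX1* were called lower at 20 h than at 12 h. At 12 h *MOT2* had 206, 259 and 139 CPM, *GAT2* had 587, 628 and 341 CPM and *CEX1* had 122, 309 and 164 CPM. *OAF1* had 87.8, 142 and 75.8 CPM at 12 h and did not pass (adjusted p = 0.072). In the lists with no called member between 30 and 20 h, 60 of 99 ribosomal protein genes were called lower at 20 h than at 12 h, against 13.7% of all tested genes. In the same comparison 37 of 54 general stress genes and 16 of 22 trehalose and glycogen genes were called higher, against 15.1% of all tested genes.

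**Figure D4:**
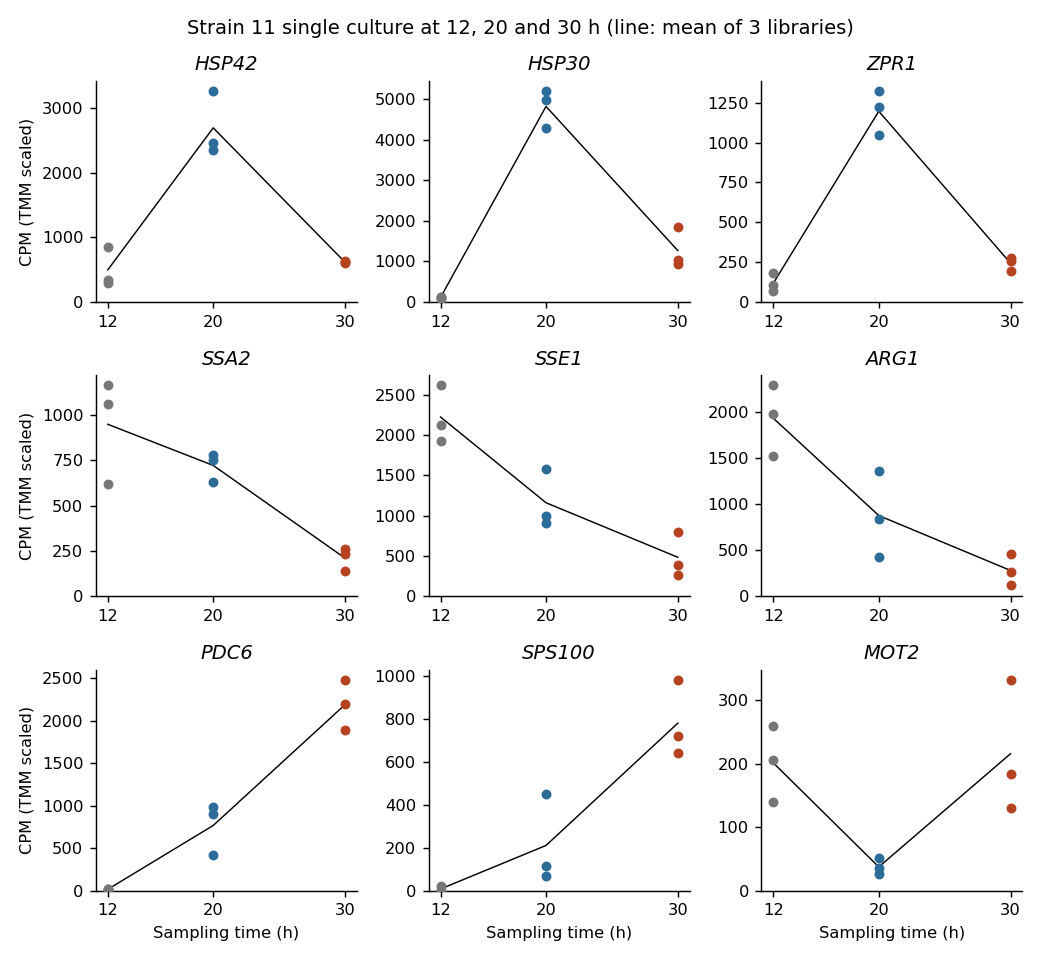
Level in CPM of 9 genes in the 3 libraries at each of 12, 20 and 30 h in strain 11 single culture, with a line through the means. *HSP42*, *HSP30* and *ZPR1* are highest at 20 h, *SSE1* and *ARG1* decline over the times, *PDC6* and *SPS100* are highest at 30 h, and *MOT2* is lowest at 20 h.

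The same times were compared in strain 12 grown alone, a separate set of 6 libraries. There 23 of 3670 genes were called (0.627%), 22 lower and 1 higher (0.0272%, the ribosomal protein gene *RPL17A*), and 10 genes were called in both strains, which is 38.5% of the 26 in strain 11 and 43.5% of the 23 in strain 12. Of the 19 genes that fell in strain 11, 16 had a log2 fold change below 0 in strain 12, against 48.2% of all tested genes. Of the 7 that rose, 5 were above 0 in strain 12 and 2 below (*MOT2* and *CEX1*), with 0 called. The 10 shared genes were lower at 30 h in both: *HSP42*, *HSP78*, *HSP104*, *BTN2*, *SSA2*, *HSP82*, *HSC82*, *AHA1*, *HSP30* and *ZPR1*. Of the chaperone list, 14 of 45 members were called lower in strain 12, against 0.599% of all tested genes, and the median was −0.99. For 24 of the 45 the 30 h libraries of strain 12 lay below its 20 h libraries, against 6.73% of all tested genes. *HSP42* had 1256, 1224 and 747 CPM at 30 h and 5681, 4314 and 3200 CPM at 20 h in strain 12 (log2 fold change −2.03). *ZPR1* had 208, 242 and 204 CPM at 30 h and 2192, 1466 and 984 CPM at 20 h (log2 fold change −2.83). The difference between the strains in the change of *HSP42* was −0.10, with a 95% interval of −1.02 to 0.82, and for *ZPR1* 0.51 (−0.46 to 1.48).

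Over all genes, the test of the difference between the strains in the 30 h against 20 h change called 0 of 3670 by edgeR, with 179 at an unadjusted p under 0.05 (4.88%) and 0 by DESeq2. The values stood apart for some genes called in strain 11: *HOG1* had a log2 fold change of 0.27 in strain 12 (difference −1.85, interval −3.01 to −0.70, adjusted p = 0.72). *BNI4* and *MOT2* had 0.02 and −0.17 in strain 12. These genes were called for their change in strain 11, which enters the difference. The amino acid synthesis list had a median of −0.06 in strain 12, with 0 of 68 called lower by edgeR and 2 lower at an unadjusted p under 0.05, against 4.71% of all tested genes.

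In strain 11 sorted from mixed culture with strain 12, 0 of 3670 genes were called between 30 and 20 h by edgeR, with 231 at an unadjusted p under 0.05 (6.29%). In these libraries *SSU1* had 301, 53.9 and 168 CPM at 30 h and 46.3, 178 and 122 CPM at 20 h. In strain 11 single culture it had at most 16.3 CPM at 30 h and 25.8 CPM at 20 h. *YHB1* had 197, 115 and 79 CPM at 30 h and 116, 178 and 48.7 CPM at 20 h in mixed culture. *OPT2* overlapped its levels in single culture. The source of the *SSU1* reads, strain 12 or strain 11, was not tested. Of the 19 genes that fell in single culture, 18 had a log2 fold change below 0 in mixed culture (48.8% of all tested genes did), with a median of −0.71, and of the 7 that rose 6 were above 0. *HSP42* had 856, 631 and 869 CPM at 30 h and 1585, 2210 and 1219 CPM at 20 h in mixed culture (log2 fold change −1.09, adjusted p = 0.41), so that its libraries did not overlap there either. *HSP30* had 1492, 808 and 1126 CPM at 30 h and 1805, 2062 and 1950 CPM at 20 h (log2 fold change −0.77). For the chaperone list, 11 of 45 members had 30 h libraries all below the 20 h libraries in mixed culture, against 7.03% of all tested genes, and 8 were lower at an unadjusted p under 0.05, against 2.78%. The median was −0.30.

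The test of the difference between single and mixed culture in that change called 0 of 3670 genes by edgeR, with 188 at an unadjusted p under 0.05 (5.12%) and 0 by DESeq2. For *HSP42* the difference, single minus mixed, was −1.04 with a 95% interval of −1.98 to −0.11 (adjusted p = 0.94). For *HSP78* it was −1.21 (−2.12 to −0.31, adjusted p = 0.87), and for *PDC6* 0.46 (−0.44 to 1.37, adjusted p = 0.97). The genes were called in the single culture that enters this difference, so its direction for them is partly set by how they were chosen.

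**Figure D5:**
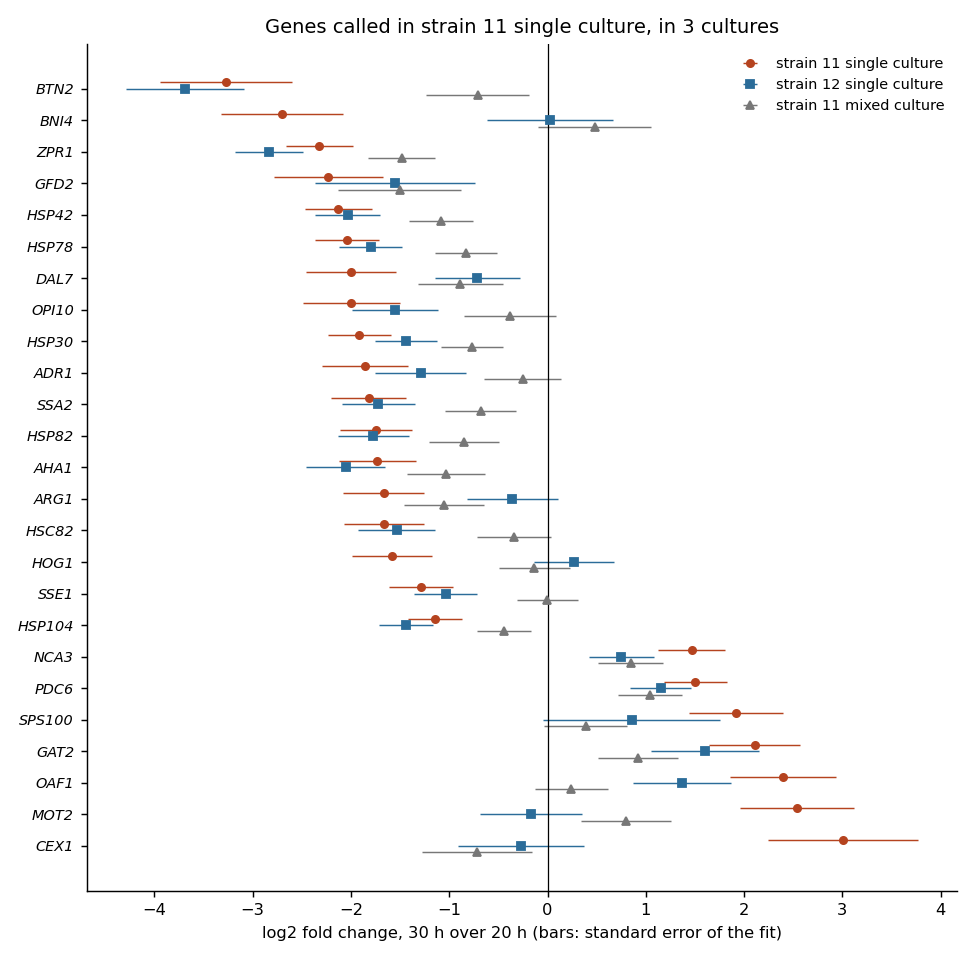
Log2 fold change, 30 h over 20 h, of 25 of the 26 genes called in strain 11 single culture, in that culture (circles), in strain 12 single culture (squares) and in strain 11 from mixed culture (triangles), with the standard error of the fit as bars. Of the 18 plotted genes that were lower in strain 11 single culture, 16 lie below 0 in strain 12 and 17 in mixed culture.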

How the data were processed

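The libraries were SOLiD RNA-seq of sorted yeast cells. The authors aligned reads to sacCer2 and deposited, for each library, read counts per gene and per exon and the RPKM of each gene (reads scaled by gene length and by the reads counted on exons). The deposited exon counts name LifeScope, and the submitters' processing notes name Cuffdiff and Cufflinks 1.3.0. For strand use, mapping filters and the LifeScope version: not given in the sources used here. Of 6717 gene identifiers 6025 matched the R64 annotation (used for names only) and 692 did not. Of these genes, 1339 (19.9%) overlap another.

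The deposited counts were tested with edgeR 4.0.16 (limma 3.58.1, R 4.3.3): filterByExpr (3670 genes kept), TMM factors, 1 coefficient for each of 12 groups over 36 libraries, so that all groups share 1 estimate of the spread, and a quasi-likelihood test of 30 h minus 20 h, called at an adjusted p of at most 0.05. The fit was tested on simulated data with 200 genes changed, of which 194 were tested. It called 28.4% of these, 7.35% at a log2 change of 1 and 53.7% at 2. Of its calls, 9.84% were false, above the 5% aimed at. A list with 0 called members may therefore hold changes that were missed. Standard errors are the log2 fold change divided by the root of F. Per gene, an exact permutation test of 3 libraries against 3 cannot go below p = 0.1, so none was used. Alternatives were DESeq2 1.42.0, RLE factors, library totals, no filter, the 6 libraries only, a block for the replicate number, and limma on log2(RPKM + 1) and log2(RPKM + 0.1), exon counts, the retrotransposon and mitochondrial genes left out, a log2 fold change of at least 1 and each library left out. The gene lists, the roles within the chaperone list and the tests were chosen with earlier results of these data known. Genes were named by rule: up to 15 rises and 15 falls among called genes with libraries that do not overlap and a mean count of at least 10, up to 4 called members of each list (or the 2 most abundant where none was called), and the strain markers *SSU1*, *YHB1* and *OPT2*. All other named genes were picked with their values in view. Replicates of a group differed beyond sampling noise (chi-square per degree of freedom 2.53 to 4.41), so each was counted as 1 sample. No promoter sequence is shown, since the genome of the build used for the counts was not used here. The values of 1 called gene are not reported here.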

Additional observations from a re-analysis of the deposited data

How the results depend on the processing

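The 26 calls became 30 with DESeq2 (25 shared) and 25 to 37 with other factors, no filter, the 6 libraries alone, exon counts, a fold threshold or fewer genes. Limma on log2(RPKM + 1) gave 56 (32 higher, 24 lower, 19 shared) and on log2(RPKM + 0.1) gave 62 (36 higher, 26 lower), against 7 higher and 19 lower in the count test; the cause was not tested. Leaving out 1 library gave 5 to 27 calls, with 5 without replicate 1 at 30 h, 11 without replicate 2 at 30 h and 12 without replicate 3 at 20 h. *HSP30*, *HSP42*, *HSP78* and *ZPR1* stayed called in all 16 alternatives run for them, and none of the 26 genes changed direction in the alternatives run. Chaperone members called lower ranged over 3 to 9 with a library left out. Without a low-count filter, 1 gene was called in the difference between strains, the mitochondrial *ATP6* (log2 3.10, adjusted p = 0.0155, edgeR), with 40, 63 and 7 reads at 30 h and 13, 10 and 5 at 20 h in strain 11, and 10, 4 and 9 at 30 h and 3, 38 and 12 at 20 h in strain 12.

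With the replicate number as a block, 13 genes were called (4 higher and 9 lower, 12 shared), 6 of them chaperone members, and both differences stayed at 0. Deviations of same-numbered libraries at 30 and 20 h correlated over genes by −0.03, −0.07 and 0.04, and not every library correlated best with its own number. With 2 to 5 reads on a median gene, such correlations are mostly counting noise. They cannot show whether the numbers pair the samples. Depth limits what can be seen: a median gene held 2 to 5 reads, so a change of a low gene may not be detectable.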

Other observations

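In all, 22 genes had an adjusted p between 0.05 and 0.1. Among those not described above, *FAS2*, the alpha subunit of fatty acid synthase, had 1009, 1236 and 1289 CPM at 30 h and 2453, 2369 and 3070 CPM at 20 h (log2 fold change −1.16, edgeR adjusted p = 0.086). *ALD5*, a mitochondrial aldehyde dehydrogenase gene, had 36.9, 115 and 131 CPM at 30 h and 142, 395 and 560 CPM at 20 h (log2 fold change −1.92, adjusted p = 0.072). *EEB1*, which makes ethyl esters of medium-chain fatty acids, had 11, 13 and 10 reads at 30 h and 6, 9 and 75 at 20 h, so that 1 library sets its value. These genes were picked after their values were seen.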
